A study of Homo sapiens with 10 samples.

Results

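The genes described here are 7 Toll-like receptors (TLR1, TLR2, TLR3, TLR4, TLR5, TLR6 and TLR8), the TLR4 partner LY96, the adaptor MYD88 and the receptor-like protein CD180, 10 genes of the 19775 that the array annotation names. Each is represented by the probe set with the highest mean over the 10 arrays among the probe sets that map to its symbol alone, and the 10 genes have 17 such probe sets in all. RNA was hybridised to 10 Affymetrix arrays of a single colour, and each culture condition has 1 array, so none is replicated. THP1 cells, a human monocytic leukaemia line that the labels call macrophages, were profiled with vitamin D3 for 24 hours and alone. HCT116, a human colorectal carcinoma line, was profiled in coculture with THP1 and vitamin D3, in coculture with THP1, with vitamin D3, and alone. Hke3, a clonal derivative of HCT116, was profiled in the same conditions. In coculture the cells shared soluble factors without touching, and the cancer lines and THP1 had different growth media. The dose of vitamin D3 and any step that differentiated THP1 are not given in the sources used here.

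Toll-like receptors are membrane proteins of the innate immune system that bind molecules made by microbes and pass the signal on through adaptors to NF-kB and interferon regulatory factors. TLR4 binds bacterial lipopolysaccharide together with LY96 and the co-receptor CD14. TLR2 pairs with TLR1 or TLR6 to bind bacterial lipopeptides, TLR5 binds flagellin, and TLR3 and TLR8 bind RNA inside endosomes. MYD88 is the adaptor of all of these except TLR3, which signals through TICAM1, and CD180 resembles TLR4 outside the cell but lacks the signalling domain.

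Values are log2 intensities normalised by the authors, and 6.18 log2, the median of all values on the arrays, was used as a filter on dim genes and not as a call of expression. Monocyte markers had a median of 11.43 log2 in THP1 with vitamin D3 and 11.48 in THP1 alone, against 5.39 to 5.69 on the 8 colon cancer arrays, and epithelial markers had 5.87 and 5.81 in THP1, against 10.95 to 11.68 on the colon cancer arrays. PTPRC, a pan-leukocyte surface phosphatase, lay between 4.06 and 4.43 on the colon cancer arrays. SRGN, a proteoglycan of myeloid granules, lay between 3.93 and 6.28, with its highest value in Hke3 in coculture with vitamin D3, and its part in the results was not tested. CYP24A1, the vitamin D hydroxylase that the hormone induces, was higher with vitamin D3 by 5.88 log2 in THP1, by 1.44 in HCT116 without coculture and by 1.45 in Hke3 without coculture. In coculture its sign was opposite, -0.98 in HCT116 and -1.36 in Hke3, so the vitamin D3 labels of these 4 arrays stand against this gene. For the Hke3 array labelled with vitamin D3 alone, 1 label field calls the cells untreated.

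In THP1, vitamin D3 went with a higher signal of LY96 and a lower signal of CD180, while TLR2 and MYD88 differed little. LY96, which holds the lipid part of lipopolysaccharide on TLR4, was at 9.39 log2 in THP1 with vitamin D3 and at 8.05 in THP1 alone, a difference of 1.34 or 2.54-fold. CD180, which forms a complex with LY86, was at 7.24 log2 with vitamin D3 and at 8.20 alone, a difference of -0.95, just short of 2-fold. LY96 was the only one of the 7 members above 6.18 log2 on a THP1 array that passed 2-fold, beside 2.04% of the 12717 genes above that level (1.56% higher and 0.488% lower). A larger difference than that of LY96 was found in 0.881% of these genes, and a lower one than that of CD180 in 0.55%. The pair has 1 array a condition, so these differences carry no test of their own.

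CD14, the co-receptor that hands lipopolysaccharide to LY96 and TLR4, was at 13.77 log2 with vitamin D3 and at 8.29 alone, a difference of 5.47. TLR4 itself did not share a direction over its probe sets. The chosen one gave 7.82 log2 with vitamin D3 and 7.90 alone, a difference of -0.08, and the other 3 gave differences of 0.55, 0.25 and 0.44. LY86, the partner of CD180, gave 10.27 with vitamin D3 and 10.10 alone. CD14 and LY96 were thus higher on the same array on which CD180 was lower.

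The lipopeptide receptors differed little. TLR2 was at 11.60 log2 with vitamin D3 and at 11.74 alone (-0.14). TLR1 was at 6.66 with vitamin D3 and at 6.20 alone (0.46), and TLR6 was at 5.73 with vitamin D3 and 5.80 alone, under 6.18 log2 on both arrays. The flagellin receptor TLR5 was at 6.83 log2 with vitamin D3 and at 6.37 alone, a difference of 0.46. Of the receptors for RNA, TLR3 was at 4.06 with vitamin D3 and 3.86 alone and TLR8 at 5.25 with vitamin D3 and 4.94 alone, all under 6.18 log2. A second probe set of TLR8 gave a difference of 0.47 and lay under that level too. MYD88 was at 10.93 log2 with vitamin D3 and at 10.65 alone, a difference of 0.28.

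**Figure D1:**
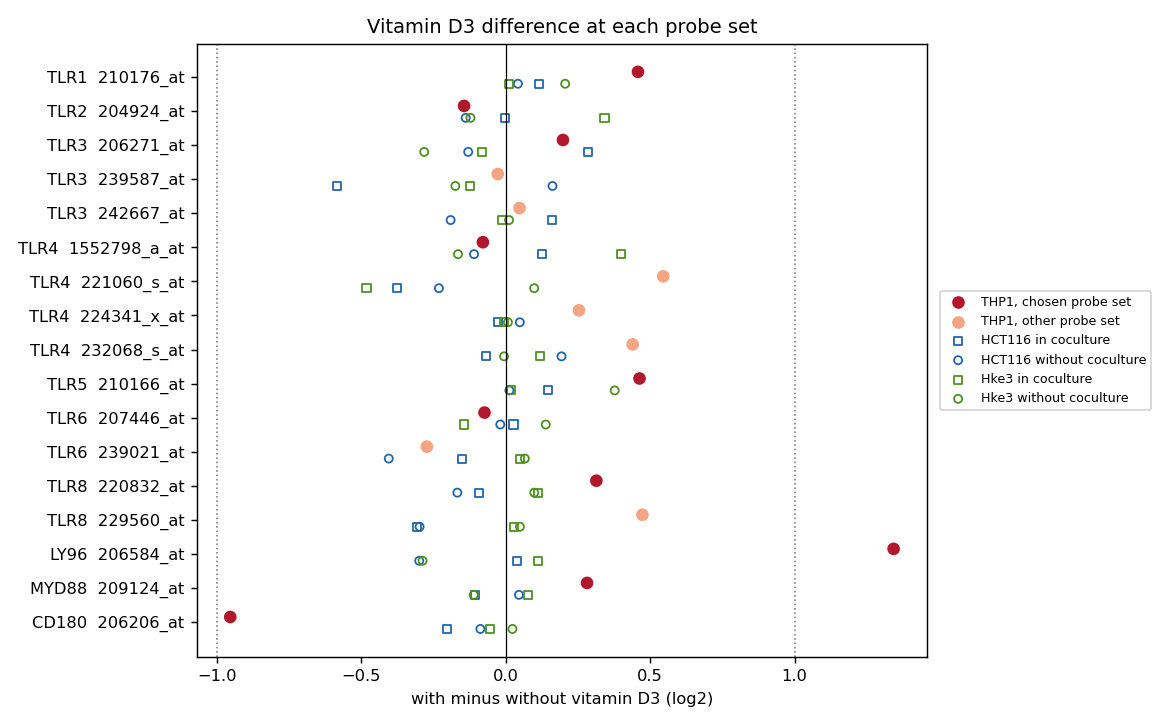
Difference in log2 intensity, with minus without vitamin D3, at each of the 17 probe sets of the 10 genes; filled points are the THP1 pair, open points the 4 pairs of colon cancer arrays, and dotted lines mark 2-fold. LY96 at 1.34 lies past 2-fold and CD180 at -0.95 lies just inside it, while the colon cancer pairs of both genes lie near 0.

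These THP1 differences were compared with those of the colon cancer lines in a limma model of all 10 arrays. It had a term for vitamin D3 in THP1, added after the data were seen and prompted by the values of LY96 and CD180. The THP1 pair is assumed there to vary like the colon cancer arrays, because it leaves no spread of its own. The threshold was passed by 2 of 7 members, LY96 and CD180, against 4.09% of all 13879 genes tested (2.8% higher and 1.29% lower). For LY96 the fitted difference was 1.45 log2, and its 4 colon cancer pairs gave 0.04 and -0.30 in HCT116 with and without coculture and 0.11 and -0.29 in Hke3 with and without coculture. All colon cancer values of LY96 lay between 3.45 and 3.83 log2, and the gene entered the fit only through THP1, so for LY96 this is a description and not a test. For CD180 the THP1 difference was the lower one by -0.87 log2, beside colon cancer pairs between -0.20 and 0.02. This value prompted the fit and rests on a single THP1 pair, so for CD180 too it is a description and not a test. Only the 6 arrays without coculture, among which CYP24A1 was higher with vitamin D3 in every pair, were also fitted. The values were then 1.64 for LY96 and -0.92 for CD180, again as a description.

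In the same fit TLR1 gave 0.36, MYD88 0.30 and TLR5 0.32 log2, none past the threshold. TLR1 and TLR4 lay under 6.18 log2 on all colon cancer arrays and entered only through THP1, so their values are descriptions too. With the spread of the cancer lines, the 95% intervals ran from -0.03 to 0.64 for MYD88 and from -0.06 to 0.71 for TLR5. TLR2 gave -0.16 and TLR4 -0.14 with its chosen probe set. Another TLR4 probe set gave 0.79, so the sign for TLR4 depends on the probe set.

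The wider pathway in THP1 is read beside the 2.04% of all genes past 2-fold, so a list of this size may hold none. Of 8 other receptors and accessory proteins above 6.18 log2, CD14 passed 2-fold (median of the list 0.005 log2, against -0.008 over all genes). Of 21 adaptors and signalling genes none did (median 0.13), and of 9 inhibitors none did (median -0.11). NFKBIA, the inhibitor that holds NF-kB in the cytoplasm, was at 12.53 log2 with vitamin D3 and 11.68 alone. In the fit added after the data were seen, this THP1 difference exceeded that of the cancer lines by 0.83 log2. That value rests on a single THP1 pair, so it is a description and not a test. Of 6 genes that Toll-like receptors induce, 2 were higher past 2-fold and 1 lower. CXCL8, a neutrophil chemokine, was at 11.25 log2 with vitamin D3 and 6.84 alone, CCL4, a macrophage chemokine, at 7.95 with vitamin D3 and 6.29 alone, and CCL5, a T cell chemokine, at 9.43 with vitamin D3 and 10.68 alone. Of 9 vitamin D response genes 8 were higher past 2-fold, among them the antimicrobial peptide gene CAMP (5.41), FBP1 of gluconeogenesis (5.49) and TREM1, a receptor that amplifies Toll-like receptor signals (4.64). VDR, the receptor for the hormone, differed by -0.25. This list was chosen with earlier results of these data known and counts CD14 again, so its share is a description and not a test.

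On the 8 colon cancer arrays the signals of all 10 genes were flat, and 6 of them lay under 6.18 log2 throughout. MYD88 ranged from 9.39 to 9.68 log2 (median 9.50). CD180 ranged from 6.77 to 6.99 (median 6.81), TLR5 from 6.22 to 6.69 (median 6.55) and TLR2 from 5.92 to 6.29 (median 6.27). Signals of the size of CD180, TLR5 and TLR2 do not show a transcript by themselves. The monocyte markers AIF1 and CSF1R lay between 6.65 and 6.89 and between 6.49 and 6.96 on the same arrays. Of 12 monocyte markers 5 exceeded 6.18 log2 on a colon cancer array, and the others lay under it throughout.

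The remaining 6 were TLR1 (4.08 to 4.41 log2), TLR3 (4.59 to 5.17), TLR4 (4.93 to 5.56), TLR6 (5.44 to 5.75), TLR8 (4.47 to 4.76) and LY96 (3.45 to 3.83). Ordered by line, MYD88 averaged 9.49 ± 0.06 log2 in Hke3 and 9.55 ± 0.13 in HCT116 (SD over the 4 conditions of each line). The ranges of the 2 lines overlapped in all 10 genes, for TLR4 only at 5.37 log2. The share over all genes was not counted, so this is a description.

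**Figure D2:**
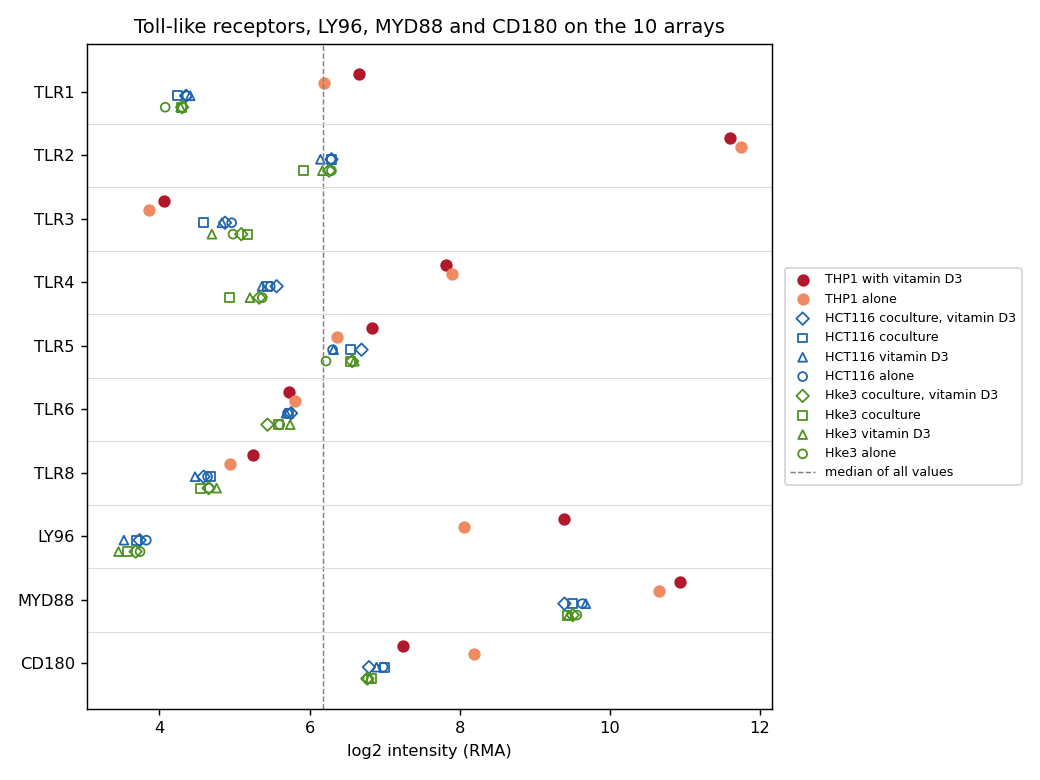
Log2 intensity of the 10 genes on each of the 10 arrays, with THP1 as filled points, HCT116 and Hke3 as open points by condition, and a dashed line at 6.18 log2, the median of all values. THP1 lies far right of the 8 colon cancer arrays for TLR2 and LY96, and left of them for TLR3.

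Coculture with THP1 moved none of the 4 members tested past the threshold, an adjusted p of 0.05 in limma, beside 7.82% of all 13243 genes (3.76% higher and 4.05% lower). TLR5 came nearest. It was at 6.69 log2 in HCT116 in coculture with vitamin D3 and 6.54 in coculture, against 6.32 with vitamin D3 and 6.31 alone. In Hke3 it was at 6.57 in coculture with vitamin D3 and 6.55 in coculture, against 6.60 with vitamin D3 and 6.22 alone. The cocultured arrays were thus the higher ones in 3 of 4 pairs, and the estimate was 0.23 ± 0.08 log2 (SE, limma unadjusted p = 0.0159, adjusted p = 0.1, 95% interval 0.05 to 0.40). It was the 1 member of 4 with an unadjusted p under 0.05, a level that 26.2% of all genes reached. Without the Hke3 array with vitamin D3 alone, in which TLR5 was above its cocultured pair, the estimate was 0.31 (limma adjusted p = 0.0492). The other fits that left out 1 array gave 0.18 to 0.28 (limma adjusted p from 0.0926 to 0.264).

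MYD88 differed with coculture by -0.12 ± 0.06 log2 (SE, limma adjusted p = 0.264, 95% interval -0.27 to 0.02), lower in 3 of 4 pairs. TLR2 differed by -0.03 (95% interval -0.24 to 0.18) and CD180 by -0.02 (95% interval -0.15 to 0.11). The lowest TLR2 value, 5.92 log2, was that of Hke3 in coculture. None of the 4 passed for a difference between the lines in the response to coculture (limma interaction adjusted p from 0.402 to 0.821, 0 of 4 with an unadjusted p under 0.05), beside 4.21% of all genes (1.87% positive and 2.34% negative). An unadjusted p under 0.05 was found there for 21.9% of all genes. The 95% intervals were wide, -0.61 to 0.16 for TLR2, -0.48 to 0.17 for TLR5, -0.08 to 0.42 for MYD88 and -0.19 to 0.30 for CD180.

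Pathway genes are read beside the 7.82% of all genes that passed with coculture. Of 20 adaptors and signalling genes 1 was higher, the interferon regulatory factor IRF7 (0.69 ± 0.10 log2, SE, limma adjusted p = 0.0144), and 1 was lower, the kinase IRAK1, which MYD88 recruits (-0.25 ± 0.05, SE, limma adjusted p = 0.0285). Of 3 interleukin-1 family receptors, which also use MYD88, the co-receptor chain IL1RAP was higher by 0.51 ± 0.12 (SE, limma adjusted p = 0.0418). Of 3 genes induced by Toll-like receptors CXCL8 was higher (0.76 ± 0.16, SE, limma adjusted p = 0.0304), and none of 4 accessory genes or 8 inhibitors passed. The median differences were -0.03 log2 for the adaptors, 0.30 for the interleukin-1 family receptors, 0.05 for the induced genes, 0.08 for the accessory genes and 0.09 for the inhibitors, against -0.02 over all genes. When each of the 8 arrays was left out in turn, IRF7 passed in 7 of 8 fits (0.59 to 0.77 log2), IL1RAP in 2 of 8 (0.42 to 0.62), CXCL8 in 2 of 8 (0.56 to 0.90) and IRAK1 in 0 of 8 (-0.27 to -0.23), while the count over all genes was 39 to 459 in place of 1035.

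Vitamin D3 moved none of the 4 members past the threshold on the colon cancer arrays, and limma called 0% of all 13243 genes for it, with 2.83% at an unadjusted p under 0.05 and 0 of the 4 members. TLR5 had the largest estimate, 0.14 ± 0.08 log2 (SE, 95% interval -0.03 to 0.31), with pairs of 0.15 and 0.01 in HCT116 with and without coculture and 0.02 and 0.38 in Hke3 with and without coculture. CD180 gave -0.08 ± 0.06, TLR2 0.02 ± 0.09 and MYD88 -0.02 ± 0.06 (SE). Neither the difference of the vitamin D3 effect between the lines nor that between coculture and no coculture passed for any of the 4 (limma interaction, 0 of 4 with an unadjusted p under 0.05), beside 0% of all genes, of which 1.09% and 4.92% had an unadjusted p under 0.05. The signs of CYP24A1 bear on these estimates, which pool pairs with and without coculture. Without coculture the pairs were -0.14 for TLR2, 0.01 for TLR5, 0.05 for MYD88 and -0.09 for CD180 in HCT116. In Hke3 without coculture they were -0.12, 0.38, -0.11 and 0.02 for the same genes.

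**Figure D3:**
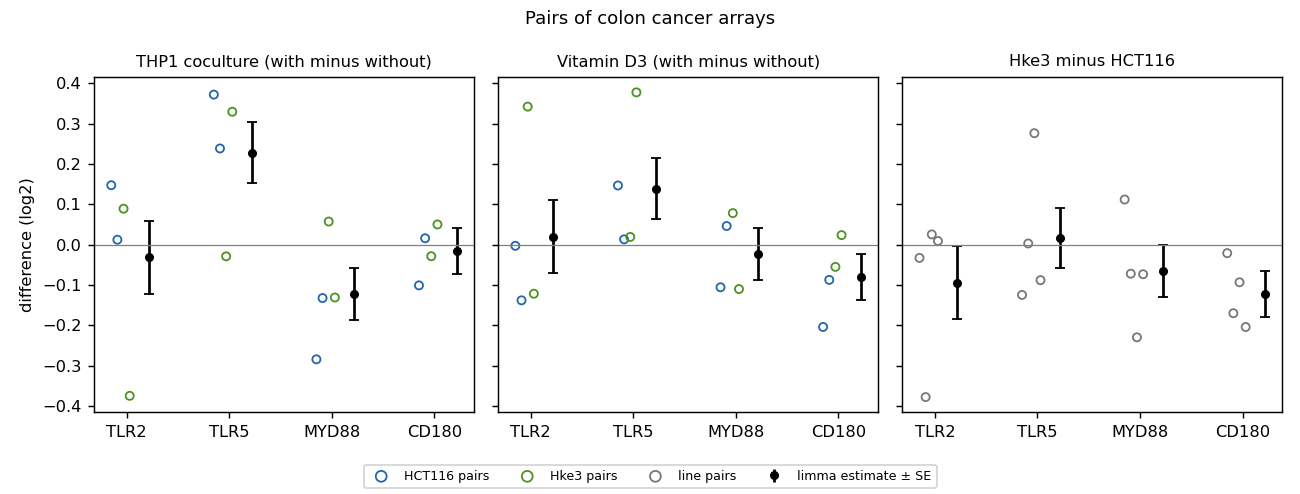
Differences in log2 intensity for the 4 genes above the dim filter, by coculture, vitamin D3 and cell line; open circles are the 4 pairs of arrays that differ in that factor alone and black points the limma estimate with its standard error. TLR5 lies above 0 in 3 of 4 coculture pairs, and no gene passed the threshold.

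None of the 4 members passed for cell line either, although 40.5% of all genes did (24.8% higher in Hke3 and 15.7% lower). CD180 was lower in Hke3 in 4 of 4 pairs, by -0.12 ± 0.06 log2 (SE, limma adjusted p = 0.119, 95% interval -0.25 to 0.01), and with arrays centred on their medians by -0.18 (limma adjusted p = 0.0293). TLR2 differed by -0.09 (95% interval -0.30 to 0.12), MYD88 by -0.07 (-0.21 to 0.08) and TLR5 by 0.02 (-0.16 to 0.19). None of the 4 had an unadjusted p under 0.05 in limma, beside 49.9% of all genes. Of 20 adaptors and signalling genes 9 were higher in Hke3 and 1 lower, a share near the 40.5% of all genes, among them IKBKB, an activating kinase of NF-kB (0.67 ± 0.08, SE, limma adjusted p = 0.000467), and IRF7 (0.72 ± 0.10, SE, limma adjusted p = 0.000911), and lower TIRAP, the adaptor that bridges TLR2 and TLR4 to MYD88 (-0.20 ± 0.07, SE, limma adjusted p = 0.0482). Leaving out each array, TIRAP passed in 0 of 8 fits and IKBKB and IRF7 in 8 of 8.

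Of 8 inhibitors 4 were higher in Hke3, beside 24.8% of all genes higher and 40.5% in either direction. Among the 4 were TNFAIP3 (1.36 ± 0.17, SE, limma adjusted p = 0.000647) and NFKBIA (0.96 ± 0.06, SE). SRGN, the myeloid proteoglycan, was higher in Hke3 by 0.84 log2 (limma adjusted p = 0.0324), the 1 monocyte marker of 5 that passed, beside the same shares of all genes. The ACTB 3' minus 5' difference, which rises as RNA quality falls, was 0.56 to 0.94 log2 in Hke3 and 0.16 to 0.30 in HCT116, and the part of either in these differences was not tested.

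THP1 stood above the colon cancer lines in TLR2, TLR1, TLR4 and LY96, and by less in MYD88 and CD180. TLR2 averaged 11.67 log2 in THP1, higher than in the cancer lines by 5.46 ± 0.10 (SE, limma adjusted p = 1.27e-12). LY96 was higher by 5.07 ± 0.25 (SE), as a description, since it entered only through THP1. TLR4 was higher by 2.52 ± 0.11 and TLR1 by 2.14 ± 0.11 (SE). MYD88, the adaptor, was higher by 1.27 ± 0.09 (2.41-fold, SE, limma adjusted p = 2.36e-07) and CD180 by 0.87 ± 0.18 (SE, limma adjusted p = 0.000973). TLR5 differed by 0.13 ± 0.14 (SE, limma adjusted p = 0.461, 95% interval -0.19 to 0.44).

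In all 6 of 7 members tested were higher, beside 28.7% of all 13879 genes higher, 39.5% lower and 68.1% in either direction. TLR1, TLR4 and LY96 entered this test only through their THP1 values, so their share says nothing more. The 4 conditions within a line stand in for replicates here, and cell type, growth medium and the way THP1 was kept cannot be told apart. Sizes for the genes under 6.18 log2 in the cancer lines are approximate. The other 3 TLR4 probe sets were higher in THP1 by 2.97, 3.43 and 2.25 log2.

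The 3 members below the filter showed both directions. TLR3 was at 4.06 log2 in THP1 with vitamin D3 and 3.86 in THP1 alone, under all 8 colon cancer values, and with no filter on dim genes the difference was -0.94 ± 0.12 (SE, limma adjusted p = 3.26e-05). Its other probe sets gave -0.49 and 0.00. TLR8 was higher in THP1 by 0.47 ± 0.09 (SE, limma adjusted p = 0.000966 with no filter), and by 1.78 at its other probe set. TLR6 differed by 0.11 ± 0.08 (SE, limma adjusted p = 0.28 with no filter).

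The counts that follow are read beside 28.7% of all genes higher in THP1 and 39.5% lower. Of the other receptors and accessory proteins, 5 of 8 were higher in THP1 and none lower. The largest differences were those of CD36, a scavenger receptor that presents lipids to TLR2 (6.04 ± 0.07 log2, SE), CD14 (5.58) and LY86 (4.49 ± 0.12, SE). These 3 genes, and IRAK3 among the inhibitors, lay under 6.18 log2 on all colon cancer arrays and entered only through THP1. LBP among the accessory proteins, which did not pass, and the signalling gene MAP3K8 entered the same way. Higher values of genes that entered so are descriptions and not tests. CNPY3, a chaperone of Toll-like receptors, was higher by 2.13 (limma adjusted p = 1.3e-08), and UNC93B1, which carries them to endosomes, was higher too (limma adjusted p = 1.11e-08). TLR9, a receptor for microbial DNA, differed by -0.04 (limma adjusted p = 0.702). The signalling genes split, with 10 of 21 higher and 7 lower (median 0.19 log2, against -0.06 over all genes). Higher were IRF5 (1.69), IKBKE (1.49) and IKBKB (1.72), and lower were TAB3, which binds the kinase MAP3K7 (-0.80), CHUK, a kinase of NF-kB activation (-0.95), and TICAM1, the adaptor of TLR3 (-0.41). Of 9 inhibitors 7 were higher and 1 lower, led by IRAK3, a kinase-dead brake on MYD88 signalling (4.90 ± 0.10, SE), and SIGIRR, a receptor that restrains the pathway, was the lower one (-0.52 ± 0.08, SE). Among interleukin-1 family receptors IL1R1 was lower in THP1 by -2.84 ± 0.13 (SE, limma adjusted p = 4.49e-09).

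**Figure D4:**
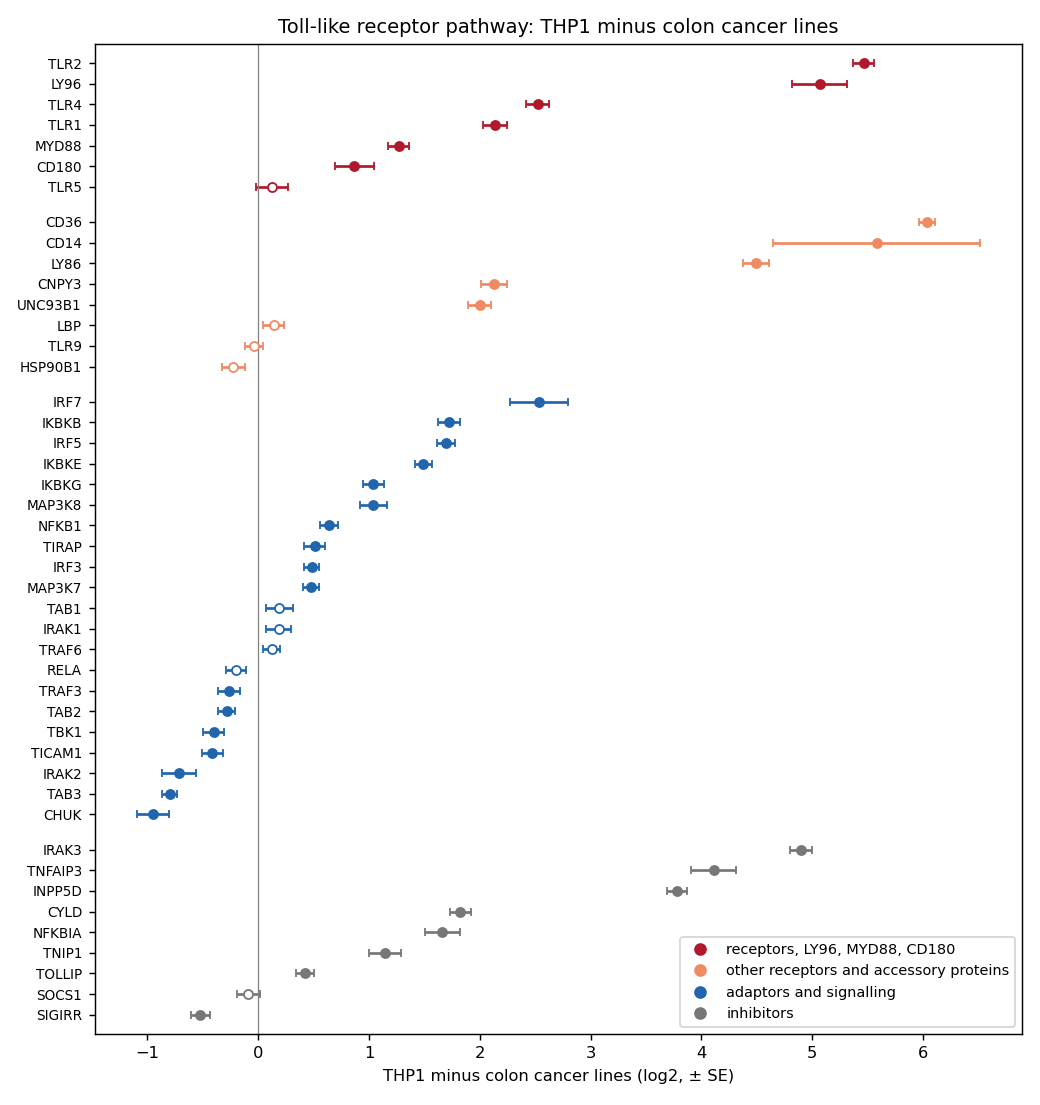
Difference in log2 intensity, THP1 minus the mean of both colon cancer lines, with the standard error of the fit, for the genes of the pathway above the dim filter; filled points passed the threshold and open points did not. The highest values are 5.46 for TLR2 among the 7 members, 6.04 for CD36 among accessory proteins and 4.90 for IRAK3 among inhibitors, while signalling genes lie between -0.95 and 2.53.

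Promoter sequence from RefSeq (GRCh38.p14) was at hand for 8 of the 10 genes. The 250 bases before the start are shown for TLR4, which was higher in THP1, though by less than TLR2 or LY96. They are also shown for MYD88, above the dim filter on all 10 arrays, and for CD180, whose THP1 signal was lower with vitamin D3. Capitals mark GAGGAA or its reverse complement, a core of the site of the myeloid factor PU.1.
TLR4, chr9:117704153-117704402, plus strand: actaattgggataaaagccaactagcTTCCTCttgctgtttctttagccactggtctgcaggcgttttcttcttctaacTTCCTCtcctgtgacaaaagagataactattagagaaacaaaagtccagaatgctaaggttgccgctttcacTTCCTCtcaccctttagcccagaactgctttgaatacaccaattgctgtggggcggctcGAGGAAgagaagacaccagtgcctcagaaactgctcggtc
MYD88, chr3:38138411-38138660, plus strand: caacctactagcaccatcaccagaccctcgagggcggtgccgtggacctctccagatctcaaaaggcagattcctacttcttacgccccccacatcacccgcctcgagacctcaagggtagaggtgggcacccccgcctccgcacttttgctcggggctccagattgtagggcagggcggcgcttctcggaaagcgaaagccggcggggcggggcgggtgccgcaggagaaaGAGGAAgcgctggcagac
CD180, chr5:67196800-67197049, minus strand: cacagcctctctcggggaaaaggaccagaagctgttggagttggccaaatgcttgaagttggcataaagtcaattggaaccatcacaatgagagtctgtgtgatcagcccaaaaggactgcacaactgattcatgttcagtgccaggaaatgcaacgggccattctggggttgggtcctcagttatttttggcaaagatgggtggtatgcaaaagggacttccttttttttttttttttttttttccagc

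The TLR4 window holds GAGGAA 4 times, between positions -224 and -35 from the start, and 2 of these extend to GAGGAAGT. The MYD88 window holds it once and the CD180 window not at all. Searched on both strands, GAGGAA stood in 23.6% of 35116 RefSeq promoter windows of the same length and 4 times or more in 0.0513%, and GAGGAAGT, which contains it, stood in 2.17%. Of the 8 windows 3 hold GAGGAA, those of TLR4, TLR6 and MYD88. TLR2 and LY96, the members furthest above the cancer lines in THP1, are not among these 3, and TLR6 differed by only 0.11 log2. A link between these letters and the signals was not tested. The vitamin D receptor half-sites AGTTCA (8.8% of all windows) and GGTTCA (7.16%) were in none of the 8, and GGGTCA (12.1%) was in that of TLR3 alone. These are matches of letters in a short window and do not show binding.

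By position on GRCh38.p14, TLR1 (chr4:38787569-38805644) and TLR6 (chr4:38822897-38868390) lie close together, while TLR4 lies at chr9:117704403-117724735 and CD180 at chr5:67179613-67196799. Between THP1 and the cancer lines, TLR1 differed by 2.14 log2 and TLR6 by 0.11.

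Over the 8 colon cancer arrays, the genes most like TLR5 were SDHAF4, USE1 and PIERCE2 (Pearson r = 0.96, 0.94 and 0.93), those most like TLR2 were TLX2, MICU2 and PABPC3 (0.97, 0.95 and 0.95), and those most like MYD88 were SLC29A1, LINC02481 and TFRC (0.96, 0.94 and 0.94). These are the highest correlations among all genes tested, over 8 arrays on which the SD of the 3 members was 0.17, 0.13 and 0.10 log2, and are given as a description.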

How the data were processed

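Per the submitters' processing notes, which name RMA and affy without versions, the deposited values are RMA output, that is log2 intensities of probe sets. Whether the 10 arrays were normalised together is not given in the sources used here. RMA corrects background and quantile-normalises, which compresses differences of dim genes.

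Arrays were grouped by title. Of 54675 probe sets, 41097 map to 1 symbol. The additive model of the 8 colon cancer arrays (limma 3.58.1, R 4.3.3) had a term each for line, coculture and vitamin D3 and left 4 residual degrees of freedom, and each interaction was added singly (3). THP1 against the lines used 3 group means (7). Tests were two-sided, adjusted by Benjamini-Hochberg over all genes whose highest value exceeded 6.18 log2. Arrays carry no counts, so their number limits precision, and p-values measure the spread between these arrays, which may be technical. The members and the 9 gene lists were chosen with earlier results of these data known. All members were named; other lists gave up to 4 genes a comparison by p, or by difference past 2-fold in THP1. LY86 and NFKBIA in THP1, AIF1 and CSF1R, TIRAP between the lines, and TLR9, CHUK, TICAM1 and SIGIRR in THP1 against the lines fell outside that rule and were chosen after their values were seen. Of 8 lists beside the members, 7 symbols were not analysed here. The models were tested on simulated data. Alternatives were the dim filter, averaged probe sets, each probe set alone, median centring, cyclic loess, trend and robust fitting, each pair as a block, and leaving out each array. For the vitamin D3 by THP1 term the THP1 arrays were not left out.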

Additional observations from a re-analysis of the deposited data

Results flagged for a closer look

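The vitamin D3 difference of LY96 in THP1 and that in the colon cancer lines differed by 1.45 log2 in the limma interaction, and for CD180 they differed by -0.87. Both stand here because a fit added after the data were seen, and prompted by these values, put the THP1 difference apart from that of the cancer lines. In both, THP1 supplied a single pair of arrays, and the LY96 signal of the cancer lines lay under 6.18 log2 throughout. Both values are thus descriptions and not tests. When each colon cancer array was left out in turn, LY96 gave 1.40 to 1.51 and CD180 gave -0.91 to -0.84.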

How the results depend on the processing

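No replicates could be paired, and with each pair of arrays that differ in 1 factor as a block the count of members was 0 for coculture, vitamin D3 and cell line. Of the alternatives tried, 4 changed a count of members past the threshold. With arrays centred on their medians the count for cell line was 1 (CD180, in place of 0), and without the Hke3 array with vitamin D3 alone the count for coculture was 1 (TLR5, in place of 0), so leaving out arrays gave 0 to 1 for coculture. Leaving out each colon cancer array gave 0 for vitamin D3, cell line and every interaction among these arrays, and 6 for THP1 against the cancer lines. For the vitamin D3 by THP1 term no THP1 array was left out, and its THP1 difference rests on that single pair. Where 1 THP1 array was left out, which was done for THP1 against the cancer lines alone, the other was assumed to vary like the cancer arrays. The count for THP1 against the cancer lines was 8 with no filter on dim genes and 4 with the filter at the 75th percentile, and LY96 alone passed 2-fold in THP1 under every alternative run. Over all genes, the coculture count of 1035 was 656 with no filter on dim genes and 259 with each pair as a block and 39 to 459 when 1 array was left out (39 without HCT116 with vitamin D3 alone), and the count for coculture by line was 277, 973 or 1169 with no filter, the stricter filter or trend and robust fitting and 101 to 282 when 1 array was left out, against 557. Differences of genes under 6.18 log2 are limited by signal over background. The filters changed which genes were tested. For the calls of CD180 and TLR5, the cause was not tested.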
